A study of Danio rerio with 4 samples.

Results

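The genes described here act in the pigment cells of the zebrafish and in the neural crest from which most of those cells arise. A feature, the unit that the array reports, was taken when its zebrafish symbol was one of 10 listed genes or an older synonym, or when its RefSeq mRNA accession belonged to one of them. This gave 10 of the 37176 features on the array, for 8 of the 10 genes. Symbols gave 6 features: 2 of mitfa, 2 of kita, 1 of ltk and 1 of tyrp1b, which the authors' table lists under its older symbol tyrp1. Accessions gave the other 4, for csf1ra, trpm1a, dct and pmela. No feature was matched to sox10 or tyr in this way, and features that carry only a human name are described apart.

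Body pigment cells of the zebrafish come from the neural crest, a migratory cell population of the early embryo and include black melanocytes, yellow xanthophores and reflective iridophores. The factor Mitfa commits crest cells to the melanocyte fate, and the receptors Kita, Csf1ra and Ltk are needed for melanocytes, xanthophores and iridophores respectively. Melanin is made inside melanosomes by tyrosinase and its relatives Dct and Tyrp1 on fibrils of Pmel. The pigmented epithelium of the retina, which is not of crest origin, uses the same melanin machinery.

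RNA of whole embryos was labelled with Cy3 and hybridised to 4 arrays, 2 for each genotype. The transgenic embryos carried Tg(hsp70-hRASG12V), a mutant human HRAS gene behind the heat-inducible hsp70 promoter, which is not restricted to pigment cells, and the other group was wild type. Embryos of both genotypes were given 37 °C for 1 h at 24 hours post fertilisation, went back to 28.5 °C and were collected at 30 hours. Each array is described as a pool of 50 embryos. The design text speaks of triplicates and calls the transgenic embryos heterogeneous, and the 2 arrays per genotype at hand were all analysed. Sample titles tag the genotypes ras and ab, so strain, clutch and handling cannot be told apart from the transgene.

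Array medians lay between 9.50 and 9.62 (log2). Across features, arrays of 1 genotype correlated with Pearson's r of 0.996 (transgenic) and 0.988 (wild type), and arrays of different genotype with 0.966 to 0.973. A feature was called when its adjusted p in limma, corrected by Benjamini-Hochberg over all features, was below 0.05. Of all features 17.6% were called, 10.3% as higher and 7.28% as lower in the transgenic embryos. The number of arrays limits the precision.

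The question put to these genes was how pigment lineage transcripts differed between heat-shocked transgenic and wild-type embryos. The melanocyte factor mitfa and the channel gene trpm1a were lower in the transgenic embryos and the receptor gene csf1ra was higher, while the melanin enzyme genes dct and tyrp1b differed by -0.08 and -0.06 on the log2 scale without passing. Of the 10 features, 1 passed as higher, 2 as lower and 7 did not pass, against 17.6% of all features passing. The measured difference was below 0 in 8 of the 10 features, against 49.5% of all features, and its median was -0.49 against 0.01. Both mitfa and kita enter with 2 features each, all below 0, so these genes weigh more in the count and the median than the others. Those shares describe a list chosen with results known and were not tested. As RNA came from whole embryos, fewer pigment cells and less RNA per pigment cell cannot be told apart in any of these values.

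**Figure D1:**
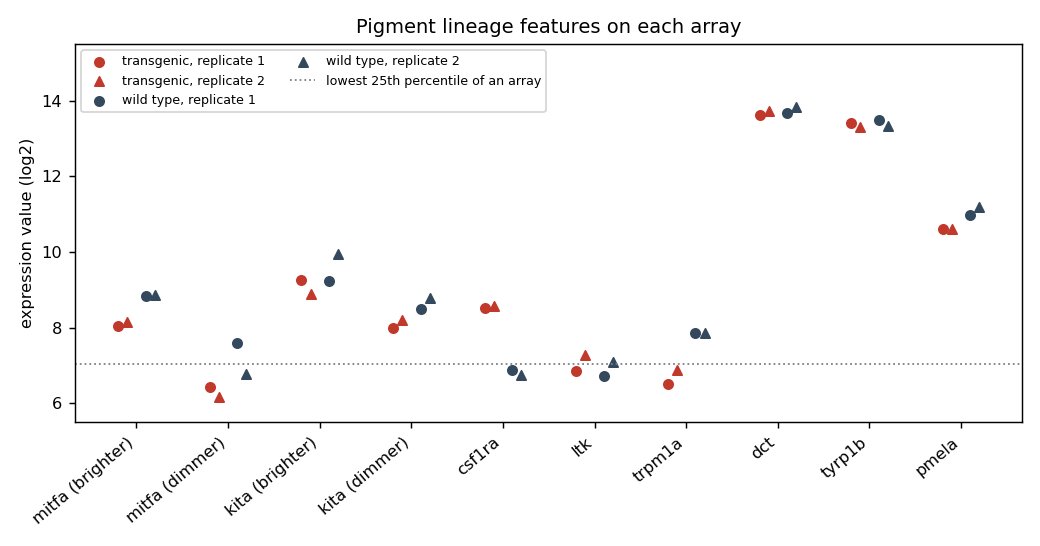
Expression value (log2) of each pigment lineage feature on each of the 4 arrays, red for transgenic and dark blue for wild type, with circles for replicate 1 and triangles for replicate 2. The dotted line is the lowest 25th percentile of an array (7.05). The csf1ra values of the transgenic arrays lie above both wild-type values, those of mitfa and trpm1a lie below, and the 4 values of dct and of tyrp1b overlap between genotypes.

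Among the lineage factors only mitfa, the master factor gene of melanocytes, was measured under its own name, by 2 features. The brighter feature (OTTDART00000024671) read 8.04 and 8.14 in the transgenic arrays and 8.84 and 8.85 in the wild-type arrays. Both transgenic values were lower, and each pair of replicates lay close together. The level fell by 0.75 ± 0.14 on the log2 scale (difference ± SE, n = 2 arrays per genotype; 95% interval -1.11 to -0.40), which is 1.69-fold, with an adjusted p of 0.0297 in limma. The dimmer feature (OTTDART00000028262) read 6.44 and 6.17 against 7.58 and 6.76. Its genotypes did not overlap either, but the wild-type arrays differed from each other by nearly as much as the genotypes did. That feature differed by -0.87 ± 0.31 without passing (adjusted p = 0.115, limma), and its transgenic mean of 6.30 fell under the 25th percentile of every array (7.05 or more), where an unknown share of the signal is background. Without wild-type replicate 2 its difference was -1.28, and without wild-type replicate 1 it was -0.45.

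Of the receptor and channel genes, csf1ra moved furthest. It encodes the colony stimulating factor 1 receptor, which xanthophores and macrophages both need. Its feature (NM_131672) read 8.52 and 8.57 in the transgenic arrays and 6.87 and 6.75 in the wild-type arrays. Both transgenic arrays were higher, and the replicates of each genotype lay close together. The rise was 1.74 ± 0.14 on the log2 scale (95% interval 1.37 to 2.10), or 3.34-fold, with an adjusted p of 0.00911 in limma, and 810 of the 37176 features had a difference at least as high. The wild-type mean of 6.81 was again under that percentile, so the size of the rise is uncertain.

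The other passing gene of this class was trpm1a, a cation channel gene of the melanocyte lineage. Its feature (NM_001080678) read 6.52 and 6.88 in the transgenic arrays and 7.85 and 7.86 in the wild-type arrays. It fell by 1.15 ± 0.18 (95% interval -1.61 to -0.70), a 2.22-fold difference with an adjusted p of 0.0211 in limma. The transgenic mean of 6.70 was likewise under it, and the 2 transgenic arrays were farther apart than the wild-type ones. Leaving out either transgenic array ended the calls of the brighter mitfa feature, csf1ra and trpm1a alike, as it did every call on the array. Over the 4 ways of leaving out 1 array, the differences of these 3 features ranged from -0.80 to -0.70, from 1.68 to 1.80 and from -1.33 to -0.97, and that of the dimmer mitfa feature from -1.28 to -0.45.

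The receptor gene kita, whose product melanocytes need to migrate and survive, was measured by 2 features. The brighter (OTTDART00000005416) read 9.25 and 8.90 in the transgenic and 9.22 and 9.95 in the wild-type arrays. These values overlapped, since transgenic replicate 1 exceeded wild-type replicate 1. The dimmer (OTTDART00000005207) read 7.99 and 8.20 against 8.48 and 8.78, with no overlap. Neither passed: the differences were -0.51 ± 0.29 (adjusted p = 0.264, limma) and -0.54 ± 0.18 (adjusted p = 0.0989, limma), and the 95% intervals ran from -1.27 to 0.24 and from -1.0 to -0.08. Without wild-type replicate 1, the differences of the brighter and dimmer kita features were -0.88 and -0.69. Without wild-type replicate 2 they shrank to -0.15 and -0.39, and without transgenic replicate 2 the brighter feature stood at -0.34. The size for kita therefore rests on which array is kept.

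The iridophore receptor gene ltk had 1 feature (ENSDART00000062907), which read 6.84 and 7.27 in the transgenic and 6.71 and 7.08 in the wild-type arrays. The genotypes overlapped, and replicates differed by more than the genotype means did. The difference was 0.16 ± 0.23 (95% interval -0.42 to 0.75, adjusted p = 0.634, limma). Its sign turned when transgenic replicate 2 (-0.05) or wild-type replicate 1 (-0.02) was left out. Both group means, 7.06 and 6.89, lay close to the lowest 25th percentile.

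**Figure D2:**
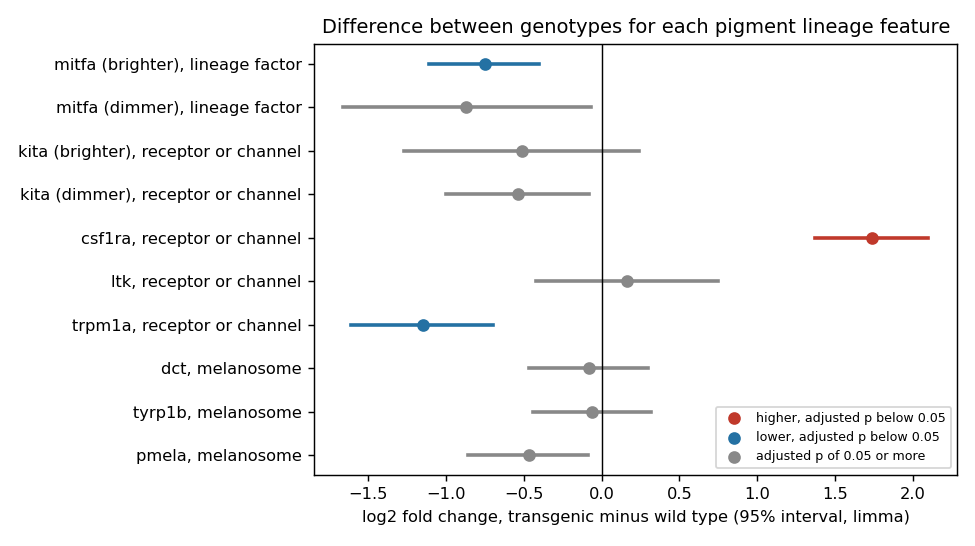
Log2 fold change (transgenic minus wild type) of each pigment lineage feature with its 95% interval from limma, 2 arrays per genotype, coloured by whether the adjusted p was below 0.05. The point of csf1ra stands at 1.74, those of trpm1a and the brighter mitfa feature at -1.15 and -0.75, and the intervals of dct, tyrp1b, ltk and the brighter kita feature include 0.

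Melanosome genes gave 0 calls among 3 features in limma, with 1 at an unadjusted p below 0.05 and 1 at a q-value below 0.05 in the authors' deposited table. Over all features those shares were 17.6%, 36.9% and 67.7%, so 0 calls among 3 features is near the background. The feature of dct (NM_131555), which encodes the dopachrome tautomerase of melanin synthesis, read 13.62 and 13.74 in the transgenic and 13.68 and 13.84 in the wild-type arrays. The tyrp1b feature (OTTDART00000023990), for a tyrosinase-related enzyme, read 13.40 and 13.30 against 13.48 and 13.33. In both genes the genotypes overlapped. The difference was -0.08 ± 0.15 for dct (adjusted p = 0.715, limma) and -0.06 ± 0.15 for tyrp1b (adjusted p = 0.794, limma). Their 95% intervals, -0.47 to 0.30 and -0.44 to 0.32, leave out a fall as large as the estimate for mitfa, though they overlap the interval of mitfa itself.

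The fibril gene pmela (NM_001045330) read 10.60 and 10.61 in the transgenic arrays and 10.99 and 11.18 in the wild-type arrays. Both transgenic values were below both wild-type values. The difference of -0.47 ± 0.15 did not pass (95% interval -0.86 to -0.09, adjusted p = 0.0878, limma). It passed when the variance prior followed the intensity (adjusted p = 0.0444, limma with a trend).

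Comparing classes within each array removes any difference in overall scale between arrays. The mean of the mitfa features minus the mean of the 3 melanosome features was -5.30 and -5.40 (log2) in the transgenic arrays and -4.51 and -4.98 in the wild-type arrays, so mitfa stood 0.60 lower against the melanosome genes in the transgenic group. Against the same 3 features, trpm1a differed between genotypes by -0.95, kita by -0.32, ltk by 0.37 and csf1ra by 1.94. Such contrasts also carry the melanosome features' own differences (dct -0.08, tyrp1b -0.06, pmela -0.47). They therefore lie above each gene's own difference, which was 0.16 for ltk and 1.74 for csf1ra. The mitfa mean gives its dimmer feature, near background, the same weight as the brighter one. For csf1ra the within-array values were -4.02 and -3.98 against -5.85 and -6.04. An exact two-sided permutation test gave 0.333 for each of the 5 comparisons, which is the smallest p that 2 arrays against 2 allow, so these contrasts between classes could not reach significance.

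At an adjusted p of 0.10 in limma 5 of the 10 features passed, 4 lower and 1 higher, against 30.3% of all features. The authors' deposited table lists a q-value below 0.05 for 7 of the 10 features, 6 lower and 1 higher, and the sources used here do not give its test. Among all features, 67.7% have such a q-value in the authors' deposited table, 34.9% higher and 32.7% lower, so the members' share of 7 in 10 is near the background. Genotypes did not overlap in 6 of the 10 features, 5 lower and 1 higher in the transgenic arrays, against 67.6% of all features. By direction, non-overlap with the transgenic arrays below was found in 33.1% of all features and above in 34.4%.

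Another 19 features carried a human name of these genes without being one of the members, 14 of them with no zebrafish symbol and 5 with another one. A human name did not identify the zebrafish gene: the feature of csf1ra itself carries the name KIT, and the feature of kitb carries CSF1R. That kitb feature differed by 0.72 ± 0.27 without passing (adjusted p = 0.133, limma). Another feature named CSF1R, with dim means of 6.91 (transgenic) and 6.33 (wild type), differed by 0.58 ± 0.15 without passing (adjusted p = 0.0615, limma). Of the 19, 1 passed as higher and 1 as lower, against 10.3% and 7.28% of all features, and these shares were not tested. The feature named SOX10, a crest and glial factor, read 11.06 and 11.18 in the transgenic and 10.96 and 11.54 in the wild-type arrays, with overlap and a difference of -0.14 ± 0.23 (adjusted p = 0.706, limma). The feature named TYR, the enzyme that starts melanin synthesis, read 9.03 and 8.91 against 9.12 and 9.69, without overlap and without passing (-0.43 ± 0.23, adjusted p = 0.232, limma).

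Features named DCT gave similar values: the other two features with that human name differed by -0.16 and -0.05 without passing, next to -0.08 for dct itself. Features named TYRP1 were not alike. One (ZV700S00003947) read 11.50 and 11.75 in the transgenic and 12.73 and 12.58 in the wild-type arrays and fell by 1.03 ± 0.16 (adjusted p = 0.0226, limma), whereas the other 3 differed by -0.06, 0.17 and 0.29 without passing. The falling feature and those at 0.17 and 0.29 also carry the name AK127601. The feature at -0.06 is listed as TYRP1 (2 of 2). Which gene each of them measures is not settled by the annotation. A feature named KIT (ZV700S00000109) rose by 1.17 ± 0.26 (8.88 and 9.38 against 7.72 and 8.20, adjusted p = 0.0431, limma), and another of that name differed by -0.44 ± 0.21 (adjusted p = 0.194, limma). The retinal paralog mitfb read 6.02 and 6.62 against 4.95 and 6.59, with overlap and without passing (0.55 ± 0.57). Of the other features named MITF, that listed as TFEB differed by 1.09 ± 0.4 and another by -0.35 ± 0.24. Neither passed, and their wild-type means were dim (6.34 and 3.93).

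**Figure D3:**
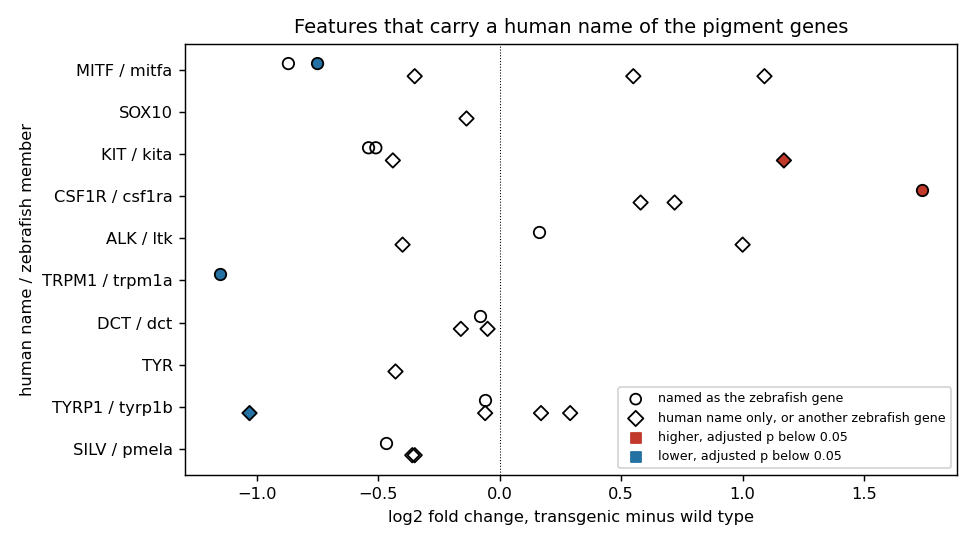
Log2 fold change (transgenic minus wild type) of features grouped by human name and zebrafish gene: circles are the members, placed by zebrafish gene, and diamonds are features with only that human name or with the symbol of another zebrafish gene. Filled symbols passed an adjusted p of 0.05. The DCT symbols sit together near 0, while one TYRP1 diamond stands at -1.03 apart from the others and one KIT diamond at 1.17 apart from the kita circles.

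Other genes of the pigment pathways were taken from lists and are given by feature. Over all features 10.3% passed as higher, 7.28% as lower and 49.5% lay below 0, and no list was tested against these shares. Of 15 features for 14 of 26 listed melanin and melanosome genes, 0 rose, 1 fell and 14 did not pass, with a median of -0.08. The fall was in pmelb, a paralog of pmela (-0.77 ± 0.17, adjusted p = 0.041, limma), and the second pmelb feature differed by -0.36 ± 0.14 without passing. The vesicle-sorting gene vps11 (-0.57), the melanosomal receptor gene gpr143 (-0.53) and the copper transporter gene atp7a (0.92), whose product supplies tyrosinase with copper, had the next smallest p and did not pass.

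Xanthophore genes (11 of 21 listed) gave 1 rise and 0 falls among 15 features, against 10.3% and 7.28% of all features. No feature was matched to the xanthophore genes gch2 and aox5. The other 14 did not pass, and the median was 0.06. The rise was in bnc2, a zinc finger gene needed for adult pigment cells (0.92 ± 0.18, adjusted p = 0.0327, limma), whose second feature differed by 0.85 without passing. The xanthophore factor gene pax7a read 11.16 and 11.22 against 11.84 and 12.51 and did not pass (-0.98, adjusted p = 0.0601, limma), and the oxidase gene aox6 differed by -0.44. In xdh, an enzyme gene of the pteridine pathway, the difference was 0.02 (named here after its value was seen).

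Iridophores reflect light from purine crystals, and their list holds enzymes of purine synthesis that all cells use. Of 28 features for 17 of 22 listed genes, 0 rose, 6 fell and 22 did not pass. The median was -0.36, with 24 of 28 features below 0. Among all features 10.3% rose and 7.28% fell by the same threshold, and 49.5% lay below 0. Of the 6 falls in the list, 4 were features of impdh1a, an enzyme gene of guanine nucleotide synthesis, which fell by 0.97 to 1.58 in 4 of its 5 features. Without impdh1a, 2 of 23 features passed and the median was -0.32. Those 2, named after their values were seen, were adsl, a purine synthesis enzyme gene (-0.61, adjusted p = 0.0465, limma), and pnp4a, a purine nucleoside phosphorylase gene that marks iridophores (-0.68, adjusted p = 0.0482, limma). A second adsl feature differed by -0.44 without passing (adjusted p = 0.134, limma). Of other iridophore genes in the list, tfec (-0.60, adjusted p = 0.0566, limma) and ednrba (0.05) did not pass. Both ednrba means, 6.84 (transgenic) and 6.79 (wild type), lay under the lowest 25th percentile of an array (7.05).

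Neural crest factors and markers (14 of 29 listed genes) gave 1 rise and 2 falls among 19 features, against 10.3% and 7.28% of all features. The other 16 did not pass, and the median was -0.20. The receptor gene erbb3b, needed by crest-derived glia and pigment stem cells, rose by 1.1 ± 0.18 (9.17 and 9.21 against 7.89 and 8.29, adjusted p = 0.025, limma), and its second feature differed by 0.79 without passing (adjusted p = 0.0528, limma). The homeobox genes msx1b (-0.62) and phox2bb (-0.60), the latter a factor of autonomic neurons, were lower, with adjusted p values of 0.0452 and 0.0468 in limma. A second phox2bb feature differed by -0.33 without passing (adjusted p = 0.24, limma). The crest gene foxd3, named after its value was seen, differed by -0.48 without passing (adjusted p = 0.0736, limma). No feature was matched to the crest genes crestin, tfap2a, sox9a and sox9b. Of the ligands, 2 of 8 listed genes were measured. The Kit ligand gene kitlgb fell by 0.78 ± 0.14 (9.23 and 9.11 against 9.95 and 9.96, adjusted p = 0.0286, limma), and il34, which encodes a ligand of the CSF1 receptor, differed by 0.48 ± 0.20 without passing.

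**Figure D4:**
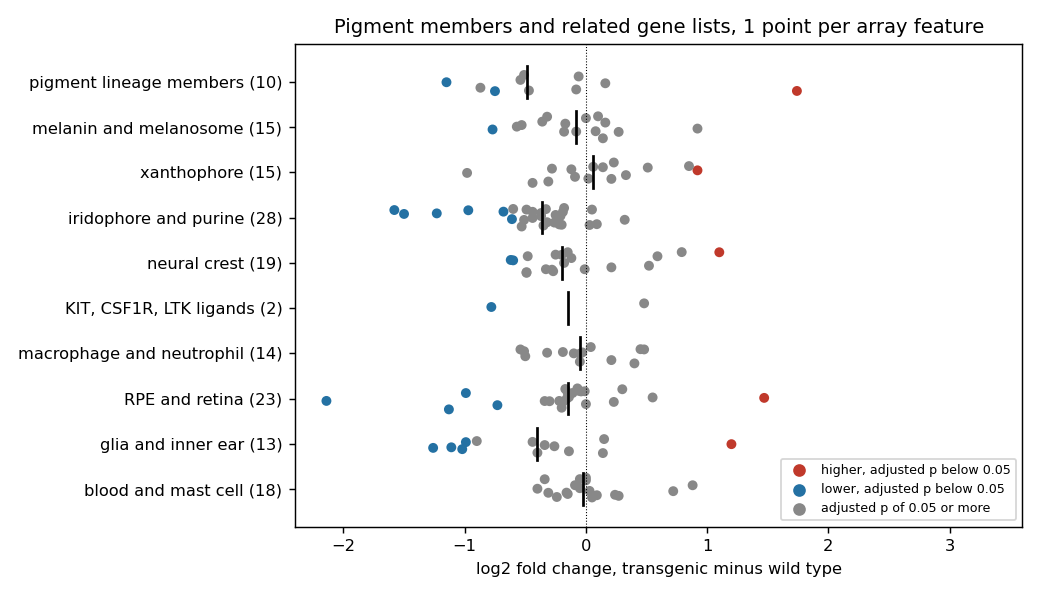
Log2 fold change (transgenic minus wild type) of every feature of the pigment lineage members and of 9 related lists, 1 point per feature, with a black bar at each median and the number of features in brackets; RPE is the retinal pigment epithelium. Red and blue points passed an adjusted p of 0.05. The il34 feature appears both among the ligands and among the macrophage and neutrophil genes. The medians run from -0.49 for the members and -0.40 for glia and inner ear to 0.06 for xanthophore genes. They are taken over features, so a gene with several features, such as mitfa or kita, weighs more.

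Several members are also used by other cells, so markers of those cells were set beside them. Beside the rise of csf1ra, 0 of 14 features of macrophage and neutrophil genes (11 of 21 listed genes) passed in limma, with 2 at an unadjusted p below 0.05 and 7 at a q-value below 0.05 in the authors' deposited table, and the median was -0.05. Of all features, 17.6%, 36.9% and 67.7% passed at those thresholds. No feature was matched to the macrophage genes marco, mfap4 and lcp1. The macrophage and neutrophil list includes the ligand gene il34, whose feature is also counted among the ligands above. The summed level of the macrophage and neutrophil list is the log2 of the summed linear values. It was 12.62 and 12.66 in the transgenic and 12.70 and 12.57 in the wild-type arrays. Sums of this kind, here and for the lists below, weigh bright features most and say little about dim ones. The brightest here, cebpa, had means of 11.12 (transgenic) and 11.15 (wild type), against 6.96 and 7.46 for mpeg1.1. The myeloid factor genes irf8 (0.40) and spi1b (0.45) had the opposite sign to mpeg1.1 (-0.50), a macrophage gene, and cxcr3.2 (-0.51 and -0.54), and none passed. The other spi1b features differed by 0.21 and 0.04. Transgenic means of mpeg1.1 (6.96) and cxcr3.2 (6.67 and 6.38) lay under the lowest 25th percentile of an array (7.05). Of the blood and mast cell genes, which include kitb, 0 of 18 features passed in limma, with 2 at an unadjusted p below 0.05 and 10 at a q-value below 0.05 in the authors' deposited table. The shares of all features are again 17.6%, 36.9% and 67.7%, and neither list was tested against them.

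Beside the falls of mitfa and trpm1a, 4 of 23 features of retinal pigment epithelium and retina genes (13 of 17 listed genes) fell and 1 rose, with a median of -0.15. By the same threshold 7.28% of all features fell and 10.3% rose. The retinoid genes rlbp1a (-1.13) and lrata (-2.14), which serve the visual cycle, and the eye field gene rx1 (-0.73) fell, with adjusted p values of 0.0234, 0.00911 and 0.0382 in limma. The remaining fall, named after its value was seen, was in rlbp1b (-0.99, adjusted p = 0.0389, limma). A second feature listed as lrata, which carries the human name DCHS1 and was dim in both genotypes (means of 6.36 and 4.89), rose by 1.47. The summed level of the list was 17.28 and 17.36 against 17.40 and 17.46. A bright pax6b feature, with means of 15.68 and 15.69, weighs far more in it than the falling lrata feature (7.55 and 9.68) or rlbp1a (7.73 and 8.86). Of 13 glia and inner ear features (8 of 14 listed genes), 4 fell and 1 rose, against the same shares. Among the falls were features listed as the myelin genes mpz (-1.11 and -1.02 in 2 of 3 features) and plp1b (-0.99 in 1 of 4). The mpz features carry the human name GRB10 and the plp1b features the name GPM6B. The falling plp1b feature was dim in the transgenic arrays (mean of 6.71), and its other features differed by 0.15, 0.14 and -0.14 without passing. The remaining fall in this list, named after its value was seen, was in fabp7a (-1.26, adjusted p = 0.0325, limma). The inner ear gene oc90 rose by 1.2. The summed level of the glia and inner ear list was 14.34 and 14.39 in the transgenic and 14.76 and 14.72 in the wild-type arrays. The part of these cell types in the pigment gene values was not tested.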

How the data were processed

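Per the labels' protocols, Roche NimbleGen labelled Trizol-extracted total RNA of 4 pools of whole embryos with Cy3. The authors deposited log2 expression values for 37176 features; the log base was inferred from their range, and how background and normalization were handled is not given in the sources read. Their own comparison, per the file headers, was deposited as a log2 fold change with a q-value for each feature. That fold change matches the difference between group means to within 2.85e-08. Features were named by RefSeq accession (2663 of 3055 matched), current symbol or synonym, using RefSeq's genes of assembly GRCz12tu.

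Genotypes were compared on all features with limma 3.58.1 in R 4.3.3 (lmFit and eBayes, 2.92 prior and 2 residual degrees of freedom), with Benjamini-Hochberg adjustment; intervals are limma's 95% intervals. SEs and p-values therefore draw on the spread of all features, and nothing says whether pools came from separate clutches. The step was tested on simulated data. Every member feature is named, and of each of the 9 lists up to 4 features with the smallest p. Further list features were named after their values were seen. Members and lists were chosen with earlier results of these data known. Alternatives were other scalings, filters, priors, an offset of 50, a replicate block, a threshold of 0.10, the deposited q-values, 1 feature per gene and leaving out each array.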

Additional observations from a re-analysis of the deposited data

How the results depend on the processing

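The members' counts of 3 features past the threshold, 1 higher and 2 lower, were found again under quantile normalization, median centring, the 25th percentile filter, the robust prior, the offset, the replicate block and 1 feature per gene; the trend prior gave 4. The filter leaves out ltk and the dimmer mitfa feature, and 1 feature per gene leaves 8 member features. Median centring moved the median difference of all features by -0.09. The deposited q-values gave 7 members (6 lower) and an adjusted p of 0.10 gave 5 (4 lower). Over all features those 2 settings gave 25150 (12981 higher, 12169 lower) and 11247 (6193 higher, 5054 lower). The trend prior gave 9291 over all features (5315 higher, 3976 lower). With 1 array left out, in limma, calls ranged from 0 to 5 among members (higher 0 to 1, lower 0 to 4), from 0 to 12163 over all features (higher 0 to 7047, lower 0 to 5116) and from 0 to 35 in the lists (higher 0 to 12, lower 0 to 23). The counts of 0 came without either transgenic array, where the spread rests on the wild-type pair alone; 3 members and 7482 to 7548 features then had an unadjusted p below 0.05, and the deposited q-values, from all arrays, gave the counts above. The highest count among members came without wild-type replicate 1, and the highest over all features and in the lists without wild-type replicate 2. A genotype left with 1 array is taken to vary as the other genotype does.

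In the lists, 22 of 146 features passed, 4 higher and 18 lower, against 17.6%, 10.3% and 7.28% of all features. The trend prior gave 37 (8 higher, 29 lower) and the deposited q-values 99 (26 higher, 73 lower). An adjusted p of 0.10 gave 36 (8 higher, 28 lower). Calls over all features rose under these 3 settings too, to the counts given above. In the lists, 1 feature per gene gave 13 (1 higher), and the 25th percentile filter gave 7 higher. Both settings count fewer than the 146 list features, and 1 feature per gene was not counted over all features. The replicate block gave 7 higher in the lists and left the members' count at 3. Over all features the replicate block gave 4404 higher, against 3830 in the main fit. The filter gave 3916 higher among the features it kept, which are fewer than in the main fit, so its share is larger. The labels do not say that replicate numbers pair the pools; deviations of same-numbered arrays correlated at 0.206, a single value with 2 pairs. The sign turned for ltk without transgenic replicate 2 (-0.05) or wild-type replicate 1 (-0.02) and for tyrp1b without wild-type replicate 1 (0.02), over ranges of -0.05 to 0.38 and -0.14 to 0.02 with 1 array left out; the cause was not tested. Signal near background limits the sizes given for csf1ra, trpm1a, ltk and the dimmer mitfa feature. The same limit holds for other features, among them mitfb, aox6, mpeg1.1, cxcr3.2, the falling plp1b feature and the second lrata feature.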
